A study of Fukomys damarensis with 47 samples.

Results

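Gene expression in cells cultured from the long bones and from the lumbar vertebrae (LV) was compared within 4 breeding female Damaraland mole-rats (Fukomys damarensis). These were the queens DVF007, LAF007, MAF006 and WAF014, which were chosen because both bone types had been sequenced, out of 5 queens and 16 animals in all. They contributed 13 of the 47 RNA-Seq libraries, 7 from long bones and 6 from LV. The question was which genes differ between a limb and an axial part of the skeleton of the same breeding animal.

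The study housed adult females with an unrelated male in new tunnels, where they became queens, or kept littermates as nonbreeders (helpers in the natal colony, or solitaires). The queens were 1004 to 1132 days old. The 10 nonbreeders compared with them, 6 helpers and 4 solitaires, were 1003 to 1232 days old. The LV were LV1 to LV5 and the long bones were those of the foreleg (humerus, radius and ulna) with the left tibia and femur, each pooled within an animal, so each animal gave 1 pool per bone type. Marrow cells that stuck to the plate were grown in a medium for mesenchymal stromal cells of the bone marrow (bMSCs) and then received 10 nM estradiol or vehicle for 24 hr. Only the LV had been incubated in Collagenase P, so that this step and the bone type cannot be told apart. Of the 13 libraries, 7 were treated with vehicle and 6 with estradiol, and the mix was uneven. DVF007 had no estradiol library of the long bones, LAF007 had none of the LV, MAF006 had no vehicle library of the LV, and WAF014 had all combinations. Vehicle and estradiol counts were summed for each animal and bone type, which gave 8 sums that were compared within animals.

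bMSC cultures hold stromal precursors that can form bone, cartilage and fat, together with marrow leukocytes that also adhere to plastic. Long bones and vertebrae arise from different embryonic tissue (limb bud and somites), and skeletal cells of adult animals are known to keep part of the HOX gene code of the place where they formed. Bone itself is built by osteoblasts, which lay down collagen and mineral, and is resorbed by osteoclasts, which descend from the myeloid lineage.

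Total counts were between 5329563 and 16327339 per library, with a median of 9684307. MAF006 stood apart from the other queens. Its long bone culture had a level of LAPTM5, a lysosomal membrane protein of leukocytes, of 10.43 log2 CPM (counts per 1000000 counts of a library, TMM-scaled, with a prior count of 2), whereas the other queens had 6.69 to 7.93. Its level of COL1A1, the main collagen of bone, was 5.03 in its long bones and 8.10 in its LV, whereas the others had 9.03 to 11.25 and 8.37 to 9.78. Thus COL1A1, a matrix gene rather than a defining marker of bMSCs, was low in 1 of 8 cultures, and leukocyte genes were present in all 8. In bulk libraries fewer cells of a type and less RNA per cell cannot be told apart.

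Across 11047 genes, 21 differed between the bone types of queens at a false discovery rate (FDR) of 10% (edgeR quasi-likelihood test with animal as a block and Benjamini-Hochberg adjustment), or 0.19% of the genes tested. Of these, 18 were higher in the LV (0.163%) and 3 were higher in the long bones (0.0272%). At an FDR of 20% there were 59 genes (0.534%). An unadjusted p under 0.05 was reached by 1066 genes (9.65%), 596 of them higher in the long bones (5.4%) and 470 higher in the LV (4.25%). With no difference in any gene, 552 would be expected under this threshold. The smallest adjusted p was 0.0485. Only 2 of the 21 genes could be given a symbol, NDUFA4L2 and FGFR1, both higher in the LV.

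The log2 fold changes of the 21 genes (long bones minus LV, so that a positive value is higher in long bones) had a median size of 3.41 and lay between 1.28 and 6.99 in size. Of the 21, 20 had the same direction in all 4 queens, whereas 8.44% of all genes tested were higher in the long bones of all 4 queens and 9.41% were higher in the LV of all 4. For 13 of the 21 the levels in the 4 long bone sums and the 4 LV sums did not overlap, which was true of 0.733% of all genes in one direction and 1.56% in the other. These shares come from the contrast that picked the genes and are given as a description. The filter on low counts asked for a CPM of 2. In the long bone sums of queens, ENSFDAG00000015602 reached at most 0.87 CPM, ENSFDAG00000012787 1.02, ENSFDAG00000009657 0.42 and ENSFDAG00000016613 1.64. Among the queens these genes thus met the filter mainly in the LV, and their direction is a description. The count depended on single animals. It was 0 without DVF007 (487 genes at an unadjusted p under 0.05, edgeR), 0 without LAF007 (441 genes), 1 without MAF006 (818 genes) and 1182 without WAF014 (2851 genes), 993 of which were higher in the long bones.

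**Figure D1:**
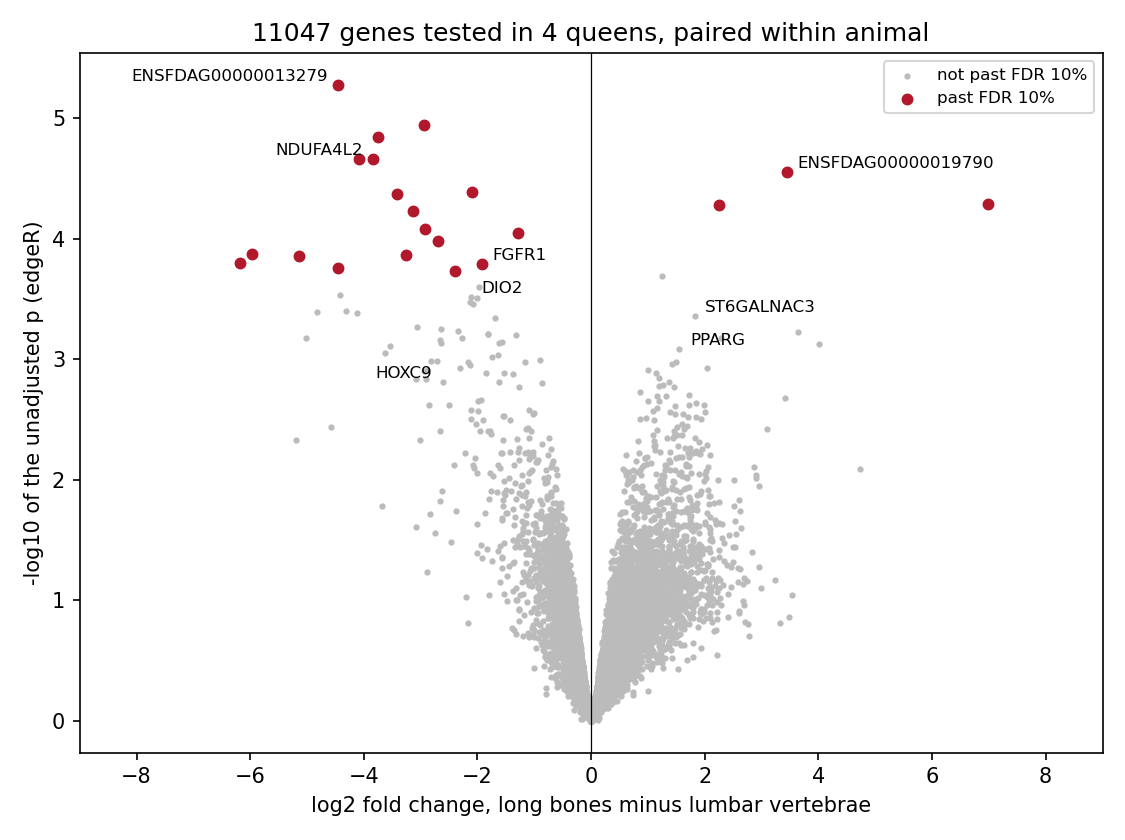
Each point is 1 of the 11047 genes tested in the 4 queens, with the log2 fold change (long bones minus LV) on the x axis and the -log10 of the unadjusted edgeR p on the y axis. The 21 red points passed an FDR of 10%, and 18 of them lie to the left, higher in the LV.

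The size of the difference between bone types varied widely among queens. In DVF007, 28.4% of genes differed by at least 1 on the log2 scale, in LAF007 19.2%, in MAF006 29.4% and in WAF014 6.67%. Across genes, the differences in DVF007 and LAF007 had a Pearson r of 0.836. MAF006 had an r of 0.326 with DVF007 and of 0.291 with LAF007. WAF014 had r values between -0.158 and -0.0486 with the other queens, so that its small differences did not follow theirs. These are descriptions across genes, which are not independent replicates, and the libraries of an animal also share its depth and composition.

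NDUFA4L2, a mitochondrial protein known to be induced when oxygen is low, had the smallest p among genes with a symbol. Its level in the long bones was 3.68 log2 CPM in DVF007, 2.84 in LAF007, -0.95 in MAF006 and 1.86 in WAF014. In the LV it was 7.92, 7.11, 0.98 and 5.39 in the same order. Every queen had more in the LV, although the groups overlapped because MAF006 was low in both bone types, with 5 counts in its long bones and 12 in its LV. The log2 fold change was -3.84 (standard error (SE) 0.35, edgeR adjusted p = 0.0485). With vehicle libraries only, from 3 queens, it was -3.93 (edgeR adjusted p = 0.0407). The adjusted p rose to 0.104 without MAF006, 0.254 without DVF007 and 0.257 without LAF007, and was 0.0504 without WAF014, with log2 fold changes between -4.04 and -3.60. Of the 8 hypoxia and glycolysis genes tested, NDUFA4L2 was the one with an unadjusted p under 0.05, which 4.25% of all genes reached towards the LV. The median log2 fold change of the list was -0.07. HK1, which catalyses the first step of glycolysis, had a value of 0.93 (edgeR adjusted p = 0.492) and ENO2, an enolase, of -0.11 (adjusted p = 0.781).

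FGFR1, a receptor for fibroblast growth factors that acts in limb and skeletal growth, was also higher in the LV of all 4 queens. The long bones had 2.94 log2 CPM in DVF007, 3.01 in LAF007, 1.12 in MAF006 and 3.20 in WAF014. The LV had 5.25, 4.87, 2.91 and 4.85. All queens thus differed by a similar amount, between -2.32 and -1.65, although MAF006 was the lowest in both bone types. The log2 fold change was -1.93 (SE 0.24, edgeR adjusted p = 0.0952). The adjusted p was 0.16 with libraries matched for treatment within each queen and 0.181 with vehicle only. It was 0.246 without MAF006, 0.479 without DVF007, 0.646 without LAF007 and 0.0504 without WAF014.

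FGFR1 was the 1 gene of the 11 tested TGF-beta, BMP and FGF signalling genes that passed an FDR of 10% in edgeR. A limma voom model of single libraries also called FGFR1 only, and DESeq2 called FGFR1, GREM1 and NRROS. These tools called 0.552% and 4.06% of all genes in either direction. By unadjusted p under 0.05, the list had 1 gene towards the long bones and 2 towards the LV, beside 5.4% and 4.25% of all genes. Its median log2 fold change was -0.000664, beside 0.03 over all genes. NRROS, which holds latent TGF-beta in myeloid cells, had a log2 fold change of 1.67 (edgeR adjusted p = 0.398). GREM1, a secreted antagonist of bone morphogenetic proteins, had 2.56, 3.17, 0.47 and 2.99 log2 CPM in the long bones of DVF007, LAF007, MAF006 and WAF014 and 5.16, 3.87, 2.10 and 3.43 in their LV. Its log2 fold change was -1.34 (SE 0.44, edgeR adjusted p = 0.486), which did not pass the threshold in edgeR. Among 7 Wnt signalling genes, FZD4, a Wnt receptor, had the smallest p, with a log2 fold change of 1.06 (edgeR adjusted p = 0.486).

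**Figure D2:**
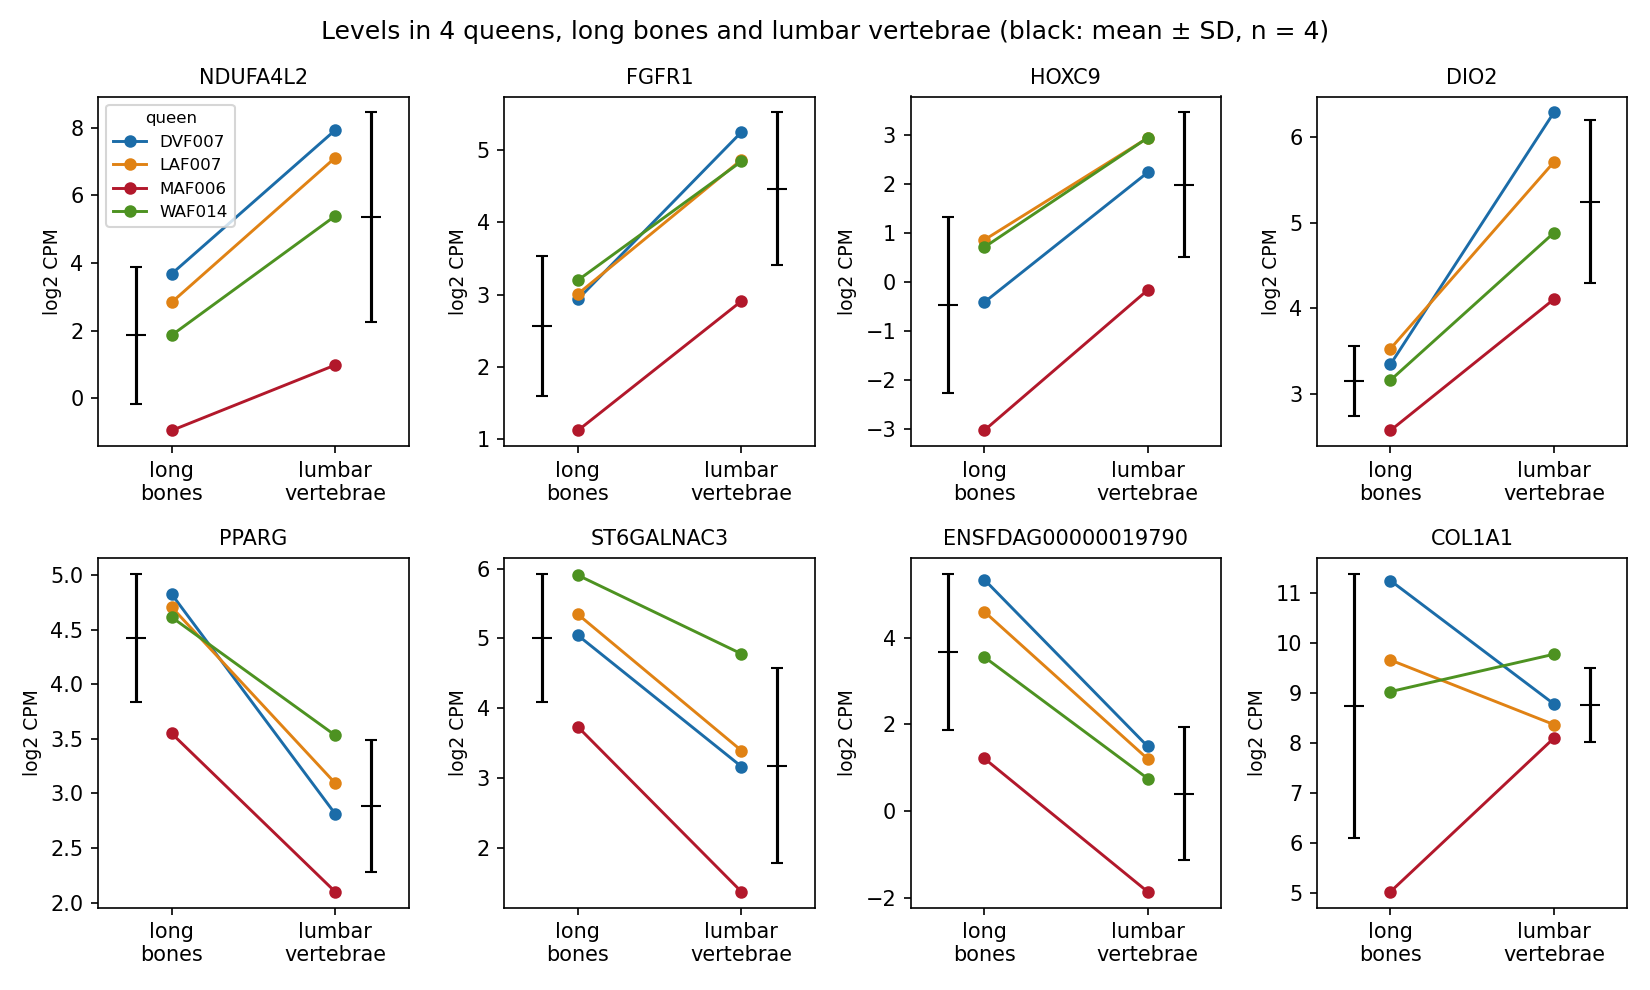
Levels (log2 CPM, y axis) of 8 genes in the long bones and LV of each of the 4 queens, joined by a line per queen, with the mean ± SD (n = 4) in black. In every queen the LV value lies above the long bone value for NDUFA4L2, FGFR1, HOXC9 and DIO2 and under it for PPARG, ST6GALNAC3 and ENSFDAG00000019790, whereas COL1A1 is divided.

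The genes of limb and axial patterning were looked at as a list. HOXC9, a homeobox gene of the trunk part of the HOX code, had levels of -0.41 log2 CPM in the long bones of DVF007, 0.86 in LAF007, -3.03 in MAF006 and 0.71 in WAF014. Its LV levels were 2.24, 2.94, -0.16 and 2.94. HOXC9 was more abundant in the LV sum of every queen, but its counts were low, with 0 in the long bones of MAF006 and at most 37 in those of the other queens. No long bone library of the queens had more than 1.87 CPM, under the 2 CPM of the filter on low counts. Among the queens the gene thus met that filter through LV libraries only, and its direction is a description. The log2 fold change was -2.61 (SE 0.49), and it did not pass the threshold over all genes (edgeR adjusted p = 0.226). Without WAF014 the adjusted p was 0.0789, and without each of the other queens it was between 0.246 and 0.794.

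SIX2, a homeobox factor of limb connective tissue and kidney, had 2.63, 2.38, -0.75 and 2.13 log2 CPM in the long bones of DVF007, LAF007, MAF006 and WAF014 and 1.77, 0.41, 1.37 and 1.44 in their LV, so MAF006 went against the other queens. Its log2 fold change of 0.51 (SE 0.69, edgeR adjusted p = 0.724) became -0.03 without LAF007. OSR2, a zinc finger factor of limb and joint development, had a log2 fold change of -0.43 (SE 0.54, edgeR adjusted p = 0.698) that became 0.04 without LAF007. Thus HOXC9, SIX2 and OSR2 did not pass an FDR of 10% in edgeR or limma, and of these 3 genes HOXC9 had an unadjusted p under 0.05. DESeq2, which called 4.06% of all genes (2.53% higher in the long bones and 1.53% higher in the LV), called HOXC9 (DESeq2 adjusted p = 0.000299). MAB21L1 and MIR196B were too low to be tested.

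The genes with the smallest p in each direction had no symbol. ENSFDAG00000013279 had 1.21, 0.86, -1.83 and 0.63 log2 CPM in the long bones of DVF007, LAF007, MAF006 and WAF014 and 5.38, 4.81, 2.75 and 5.18 in their LV. The groups did not overlap, and the log2 fold change was -4.45 (SE 0.32, edgeR adjusted p = 0.0485). ENSFDAG00000013909 had 2.56, 2.36, 1.97 and 1.47 in the long bones and 5.74, 5.23, 4.54 and 4.45 in the LV, again without overlap. Its log2 fold change was -2.94 (SE 0.24, edgeR adjusted p = 0.0485).

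Towards the long bones, ENSFDAG00000019790 had 5.34, 4.60, 1.22 and 3.56 log2 CPM in the long bones and 1.50, 1.21, -1.85 and 0.76 in the LV. All queens were higher in the long bones, though the groups overlapped because of MAF006, and the log2 fold change was 3.45 (SE 0.32, edgeR adjusted p = 0.0516). ENSFDAG00000012216 was nearly absent from the LV, with 0 counts in DVF007, LAF007 and MAF006 and 1 in WAF014. The long bones had 39, 40, 3 and 72 counts. Nonbreeder LV levels were at most -2.43 log2 CPM, so the gene passed the filter on low counts only through long bone libraries. Its direction was thus set by that filter, and its values are a description. With the queens pooled, 154 counts among 66496407 in the long bones stood against 1 among 63539469 in the LV. The ratio was 147 (95% exact binomial interval 26.0 to 5850, counting error only, without the spread between queens). The edgeR adjusted p was 0.0586. These genes lost the threshold without DVF007, LAF007 or MAF006, with adjusted p values between 0.104 and 0.319.

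The gene ENSFDAG00000016362 was singled out after its values were seen, as the exception among the 21 genes in direction. Its counts in the LV were 2053 in DVF007, 1603 in LAF007, 0 in MAF006 and 4915 in WAF014, and those in the long bones were 10, 48, 2 and 71. MAF006 thus had almost no reads of this gene in either bone type, whereas the other queens had a log2 difference between -6.57 and -5.76. The log2 fold change was -5.96 (SE 0.73, edgeR adjusted p = 0.0901). It was the 1 gene called without MAF006 (edgeR adjusted p = 0.0567).

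Because fewer than 5 genes with a symbol passed an FDR of 10% in each direction, those next in p are described as well. They missed the threshold in edgeR. DIO2, the deiodinase that activates thyroid hormone, had 3.35, 3.53, 2.57 and 3.16 log2 CPM in the long bones of DVF007, LAF007, MAF006 and WAF014 and 6.29, 5.71, 4.11 and 4.88 in their LV, without overlap. Its log2 fold change was -2.11 (SE 0.30, edgeR adjusted p = 0.133), and -2.18 (adjusted p = 0.0574) in the limma voom model of single libraries, which called 0.552% of all genes. ZEB1, a transcription factor of mesenchymal cells, had 5.64, 5.98, 5.20 and 6.04 in the long bones and 6.82, 6.81, 5.93 and 6.74 in the LV, with a log2 fold change of -0.86 (SE 0.16, edgeR adjusted p = 0.227; limma adjusted p = 0.0384).

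On the long bone side, PPARG, the nuclear receptor that drives fat cell differentiation, had 4.83, 4.71, 3.55 and 4.62 log2 CPM in the long bones and 2.81, 3.09, 2.10 and 3.53 in the LV. The groups did not overlap, by the small margin between MAF006 in the long bones and WAF014 in the LV. The log2 fold change was 1.55 (SE 0.26, edgeR adjusted p = 0.184; limma adjusted p = 0.0466). ST6GALNAC3, an enzyme that adds sialic acid to glycans, had 5.04, 5.34, 3.73 and 5.90 in the long bones and 3.17, 3.39, 1.37 and 4.78 in the LV, with a log2 fold change of 1.82 (SE 0.27, edgeR adjusted p = 0.151). SHTN1, a cytoskeletal protein known from neurons, had a log2 fold change of 1.00 (SE 0.18, adjusted p = 0.208), PYGL, a glycogen phosphorylase, of 1.26 (SE 0.24, adjusted p = 0.233) and ARL11, a small GTPase of macrophages, of 1.19 (SE 0.23, adjusted p = 0.234, all edgeR). In each of these 5 genes the long bone value was the larger in all 4 queens. Both PPARG and DIO2 are on the adipocyte list, on opposite sides. Of the 8 adipocyte genes tested, 1 had an unadjusted p under 0.05 towards the long bones (5.4% of all genes) and 2 towards the LV (4.25%). At an FDR of 10%, limma and DESeq2 each called PPARG and DIO2 of this list (0.552% and 4.06% of all genes in either direction).

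The same comparison was made in 10 nonbreeders that had both bone types, in which 969 genes passed an FDR of 10% (8.77%), 556 higher in the long bones (5.03%) and 413 higher in the LV (3.74%). All 21 genes of the queens had the same direction there, and 19 also passed an FDR of 10%, which is 90.5% of the queens' genes and 1.96% of the nonbreeders'. The same direction was shared by 77.1% of all genes tested. The filter on low counts used the libraries of both groups, so for genes near the floor in a bone type this agreement is a description. The 2 that did not pass in nonbreeders, named after their values were seen, were ENSFDAG00000016613 (log2 fold change -4.08 in queens and -1.47 in nonbreeders, edgeR adjusted p = 0.122 in nonbreeders) and ENSFDAG00000009010 (-2.40 and -0.23, edgeR adjusted p = 0.72).

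NDUFA4L2 had a log2 fold change of -2.35 in nonbreeders (SE 0.34, edgeR adjusted p = 0.000987), with the LV above the long bones in 10 of 10 animals. Its nonbreeder levels were between 1.29 and 3.47 log2 CPM in the long bones, with a median of 2.90, and between 3.28 and 7.23 in the LV, with a median of 4.93. FGFR1 had -0.80 (SE 0.22, edgeR adjusted p = 0.0483), in 8 of 10 animals. HOXC9 had -2.08 (SE 0.22, edgeR adjusted p = 9.12e-05), in 10 of 10 animals, with long bone levels of -1.54 to 1.08 and LV levels of 1.39 to 3.33. Its long bone levels were low here too, and the filter used these libraries, so the agreement of HOXC9 is a description. SIX2 was higher in the long bones of 10 of 10 nonbreeders, with a log2 fold change of 1.11 (SE 0.16, edgeR adjusted p = 0.00124). The gene without symbol ENSFDAG00000019790 had 3.45 in queens and 3.45 in nonbreeders.

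**Figure D3:**
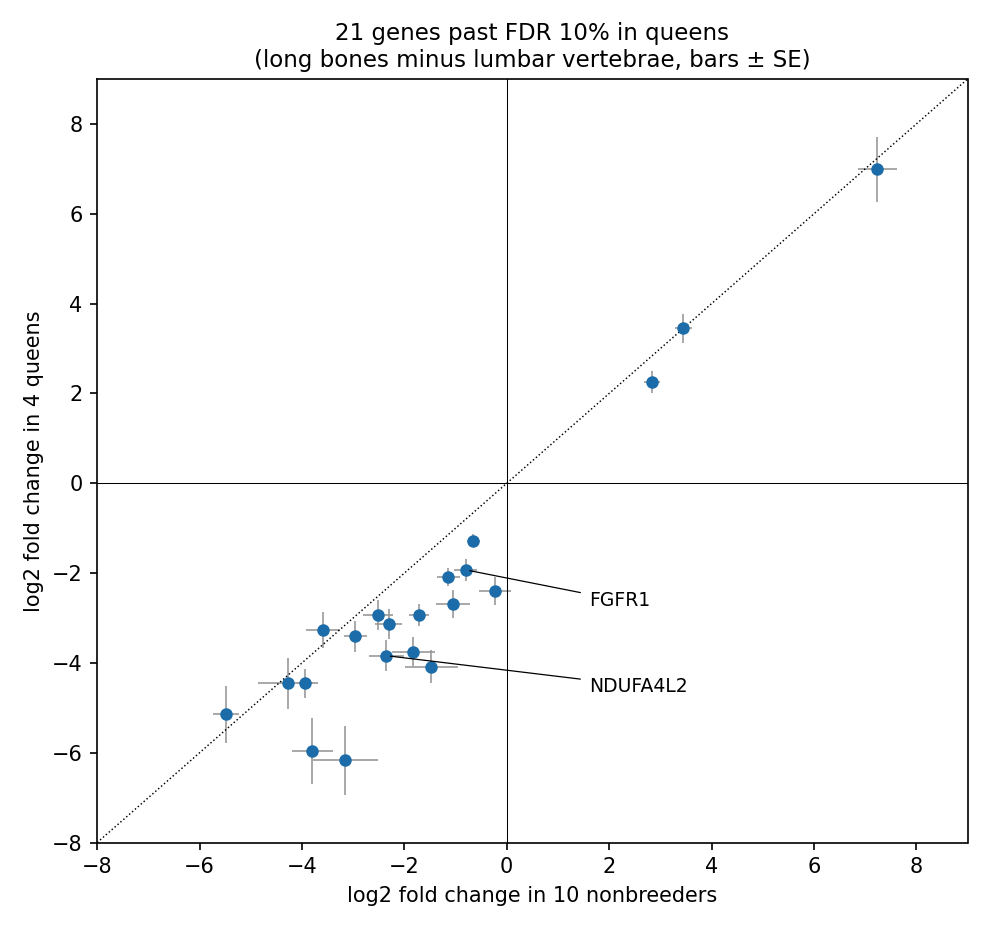
Log2 fold changes (long bones minus LV, ± SE) of the 21 genes that passed an FDR of 10% in queens, with the 10 nonbreeders on the x axis and the 4 queens on the y axis. All 21 points have the same sign in both, and 17 lie farther from 0 in queens than the dotted line of equal values.

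Of the 21 genes, 17 had the larger log2 fold change in queens, with a median size of 3.41 against 2.51 in nonbreeders. The genes were picked by their size in queens, so this is a description. The difference between queens and nonbreeders in the bone type effect was tested by an interaction term over all 14 animals. None of the 11047 genes passed an FDR of 10% (0%; edgeR, smallest adjusted p = 0.794), and 539 had an unadjusted p under 0.05 (4.88%). For NDUFA4L2 the difference of the 2 log2 fold changes was -1.53 (SE 0.62, edgeR adjusted p = 0.794), and for FGFR1 it was -1.12 (SE 0.39, edgeR adjusted p = 0.794). Natal colony was not a term of this fit. In a fit chosen after seeing the data, each queen was set against the nonbreeder whose name begins with the same letters (DVF008, LAF008, MAF003 and WAF011), with the bone type effect fitted per pair, the letters being taken for the natal colony (edgeR, 16 sums, 3 residual degrees of freedom). Again 0 genes passed an FDR of 10%, and 137 had an unadjusted p under 0.05. For NDUFA4L2 the difference was -0.35 (SE 0.30, edgeR adjusted p = 1) within these pairs, with pair values of -1.18 for DVF007, -0.32 for LAF007, -0.17 for MAF006 and 0.49 for WAF014. For FGFR1 it was -0.85 (SE 0.40, edgeR adjusted p = 1), and the pair values were -0.67, -0.00142, -2.35 and -0.64 in the same order. The difference for NDUFA4L2 was thus smaller in these pairs than against all nonbreeders, and WAF014 went the other way.

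Over all 14 animals, DESeq2 called 3 genes for the interaction (0.0272%). They are CLDN17, a tight junction protein (1.67, DESeq2 adjusted p = 0.0848), ENSFDAG00000009246 (-2.22, DESeq2 adjusted p = 0.0848) and ENSFDAG00000010933 (-2.95, DESeq2 adjusted p = 0.0154), and were named after their values were seen. Without WAF014 the edgeR count was 1092, 835 of them with the larger value towards the long bones in queens.

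In the other direction, the 969 genes of the nonbreeders were followed in the queens. The queens took no part in the fit that picked them, although the filter on low counts used all 47 libraries. In the fit of the 4 queens, 935 of the 969 (96.5%) had the same direction, and 424 (43.8%) had it with an unadjusted p under 0.05, where 9.65% of all genes reached that p in either direction. Their median log2 fold change in the nonbreeders' direction was 0.84 in queens and 0.69 in nonbreeders. By animal, the same direction held for 91.7% of them in DVF007, 92.6% in LAF007, 75.5% in MAF006 and 73.7% in WAF014. Over all genes tested the shares were 74.1%, 74.1%, 65.2% and 45.7% in the same order, the lowest being that of WAF014.

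The 16 gene lists hold genes with a symbol, which 1117 of the tested genes had. Of 24 leukocyte genes tested, none passed an FDR of 10% in queens by edgeR or limma and 7 did by DESeq2, all higher in the long bones, a direction in which DESeq2 called 2.53% of all genes. By edgeR, 10 had an unadjusted p under 0.05 towards the long bones and 0 towards the LV, beside 5.4% and 4.25% of all genes. The list had 21 positive and 3 negative log2 fold changes, where 52.2% of all genes were positive, and a median of 1.00, beside 0.03 over all genes. LAPTM5 had 6.69, 7.12, 10.43 and 7.93 log2 CPM in the long bones of DVF007, LAF007, MAF006 and WAF014 and 4.16, 6.08, 8.28 and 7.26 in their LV, with a log2 fold change of 1.60 (SE 0.35, edgeR adjusted p = 0.318). CORO1A, an actin regulator of blood cells, had 5.42, 4.58, 8.37 and 4.98 in the long bones and 3.36, 3.32, 5.83 and 4.68 in the LV, with a log2 fold change of 1.55 (SE 0.39, edgeR adjusted p = 0.380). Every queen had more of both in the long bones, and MAF006 was the highest in both bone types. COTL1, an actin-binding protein, had a log2 fold change of 1.73 (adjusted p = 0.281) and LCP2, a T cell and myeloid signalling adaptor, of 1.74 (adjusted p = 0.376, both edgeR). COTL1 varied less among the long bones of the queens (SD 0.59 log2 CPM) than LAPTM5 (1.67) and CORO1A (1.72). Without MAF006 the count of leukocyte genes with an unadjusted p under 0.05 was 6 of 24, and without WAF014 it was 12 of 24. Of all 11047 genes, 818 and 2851 reached that p in either direction in these settings.

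The summed CPM of the 24 leukocyte genes was 524.3 in the long bones of DVF007, 458.3 in LAF007, 4275 in MAF006 and 844.5 in WAF014. In the LV it was 137.8, 263.3, 1571 and 550.2. All 4 queens had the larger sum in the long bones, although MAF006 had more in its LV than any other queen in its long bones. In nonbreeders 11 of the 24 passed an FDR of 10%, all higher in the long bones, beside 5.03% of all genes. The leukocyte level thus went with the bone type in the queens, as did the genes described above, and its part in their differences was not tested.

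The 16 interferon and inflammation genes all had a positive log2 fold change, as did 52.2% of all genes, with a median of 0.48. Of them, 4 had an unadjusted p under 0.05 (CP, C3, CCL8 and NFKBIA), beside 5.4% of all genes in that direction. None passed an FDR of 10% in edgeR or limma, and CP and C3 did in DESeq2, which called 2.53% of all genes in that direction. CP, a copper-carrying plasma protein, had 3.69, 4.22, 5.36 and 4.07 log2 CPM in the long bones of DVF007, LAF007, MAF006 and WAF014 and 2.36, 2.67, 4.43 and 3.14 in their LV, with a log2 fold change of 1.19 (SE 0.24, edgeR adjusted p = 0.273). C3, the central complement protein, had a log2 fold change of 1.50 (SE 0.43, edgeR adjusted p = 0.444). The summed CPM was 380.9, 398.1, 726.6 and 513.4 in the long bones and 251.2, 279.9, 472.6 and 378.1 in the LV, with the larger sum in the long bones of each queen.

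**Figure D4:**
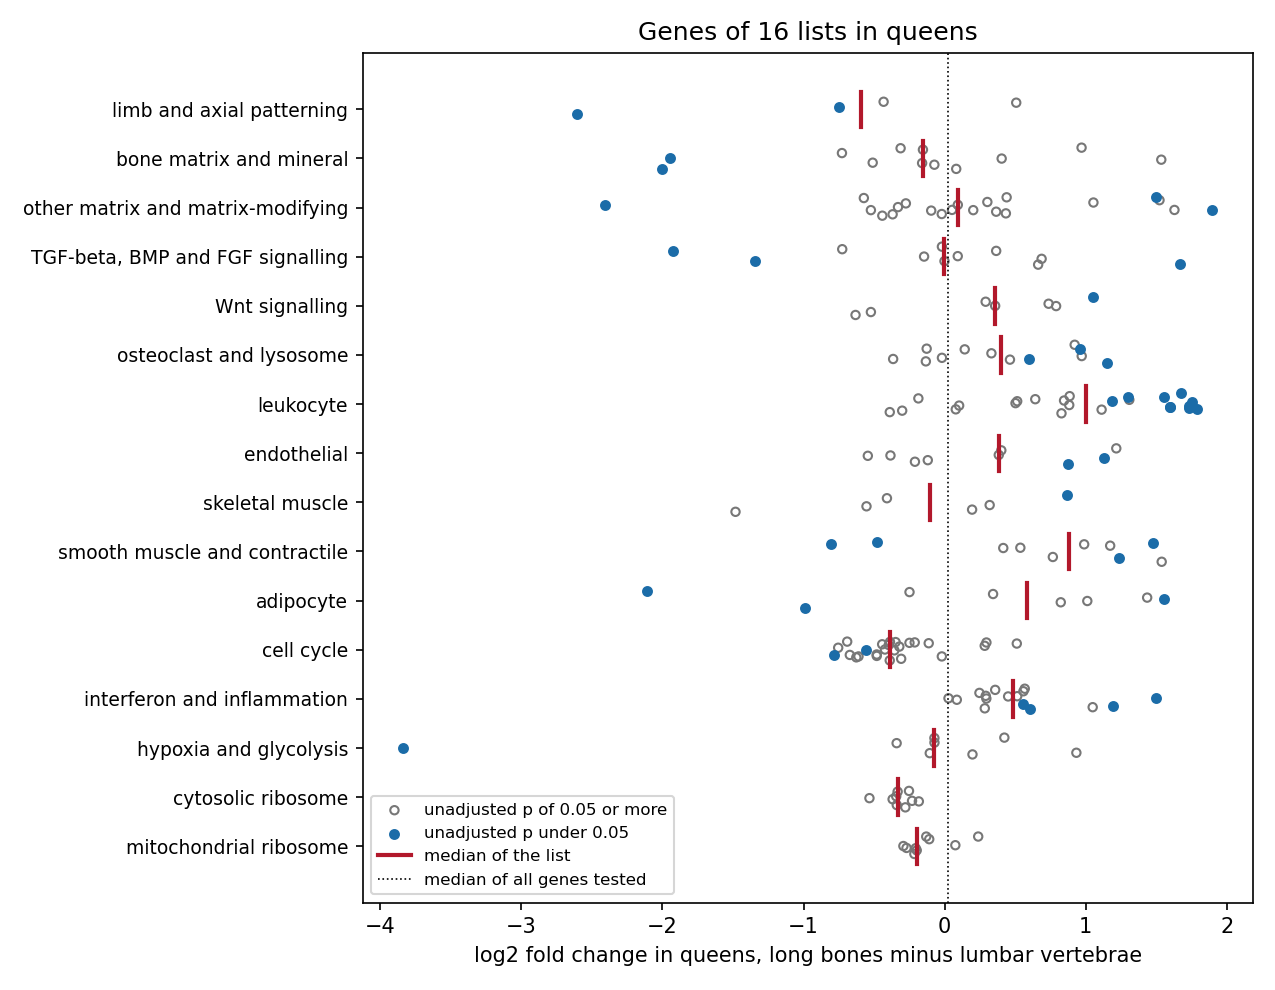
Log2 fold changes in queens (x axis, long bones minus LV) of the tested genes of 16 lists, 1 row per list. Filled points have an unadjusted p under 0.05, the red bar is the median of a list and the dotted line the median of all genes (0.03). The leukocyte median is 1.00 and the interferon and inflammation genes all lie above 0, whereas NDUFA4L2 is the point farthest to the left.

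Genes of bone itself were divided. The 12 bone matrix and mineral genes tested had 4 positive and 8 negative log2 fold changes (47.8% of all genes were negative) with a median of -0.16, which was 0.28 without MAF006 and -0.46 without LAF007. None passed an FDR of 10% in edgeR, whereas limma called ANKH and DESeq2 called ANKH and PHEX (0.552% and 4.06% of all genes in either direction). These are the 2 with an unadjusted p under 0.05, both towards the LV (4.25% of all genes), and both act in mineralization. ANKH, which exports the mineral inhibitor pyrophosphate, had 4.65, 6.01, 5.55 and 6.21 log2 CPM in the long bones of DVF007, LAF007, MAF006 and WAF014 and 8.09, 8.16, 6.30 and 7.69 in their LV. The groups did not overlap, and the log2 fold change was -1.95 (SE 0.44, edgeR adjusted p = 0.328). PHEX, an osteoblast and osteocyte enzyme needed for phosphate balance, had 1.88, 2.73, 3.30 and 2.60 in the long bones and 3.82, 3.75, 7.84 and 3.36 in the LV, with a log2 fold change of -2.00 (SE 0.67, edgeR adjusted p = 0.486). The LV of MAF006 had by far the highest PHEX level.

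COL1A1 had 11.25, 9.66, 5.03 and 9.03 log2 CPM in the long bones of DVF007, LAF007, MAF006 and WAF014 and 8.78, 8.37, 8.10 and 9.78 in their LV. It was higher in the long bones of 2 queens and in the LV of the others, with a log2 fold change of 0.08 (SE 0.98, edgeR adjusted p = 0.974) that ranged from -0.82 without DVF007 to 1.04 without MAF006. CTSK, the collagen-degrading protease of osteoclasts, had 7.67, 8.71, 7.42 and 8.97 in the long bones and 9.20, 9.22, 6.90 and 8.94 in the LV. Its log2 fold change was -0.36 (SE 0.35, edgeR adjusted p = 0.614). ENG, a TGF-beta co-receptor of stromal and endothelial cells, had 4.25, 2.73, 2.26 and 2.41 in the long bones and 4.07, 2.74, 0.07 and 5.09 in the LV, with a log2 fold change of -0.15 (SE 0.78, edgeR adjusted p = 0.935) that became 0.65 without WAF014. Of 12 osteoclast and lysosome genes, 3 had an unadjusted p under 0.05, all towards the long bones (GUSB, CTSZ and ATP6V0A1), beside 5.4% of all genes, and 8 of the 12 values were positive, with a median of 0.40. At an FDR of 10%, DESeq2 called GUSB of this list (2.53% of all genes in that direction), and edgeR and limma called 0. Of 21 other matrix genes, SPOCK3, a secreted proteoglycan, had the smallest p, with a log2 fold change of -2.41 (SE 0.62, edgeR adjusted p = 0.398). It was the 1 gene of that list called by DESeq2 (1.53% of all genes towards the LV).

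**Figure D5:**
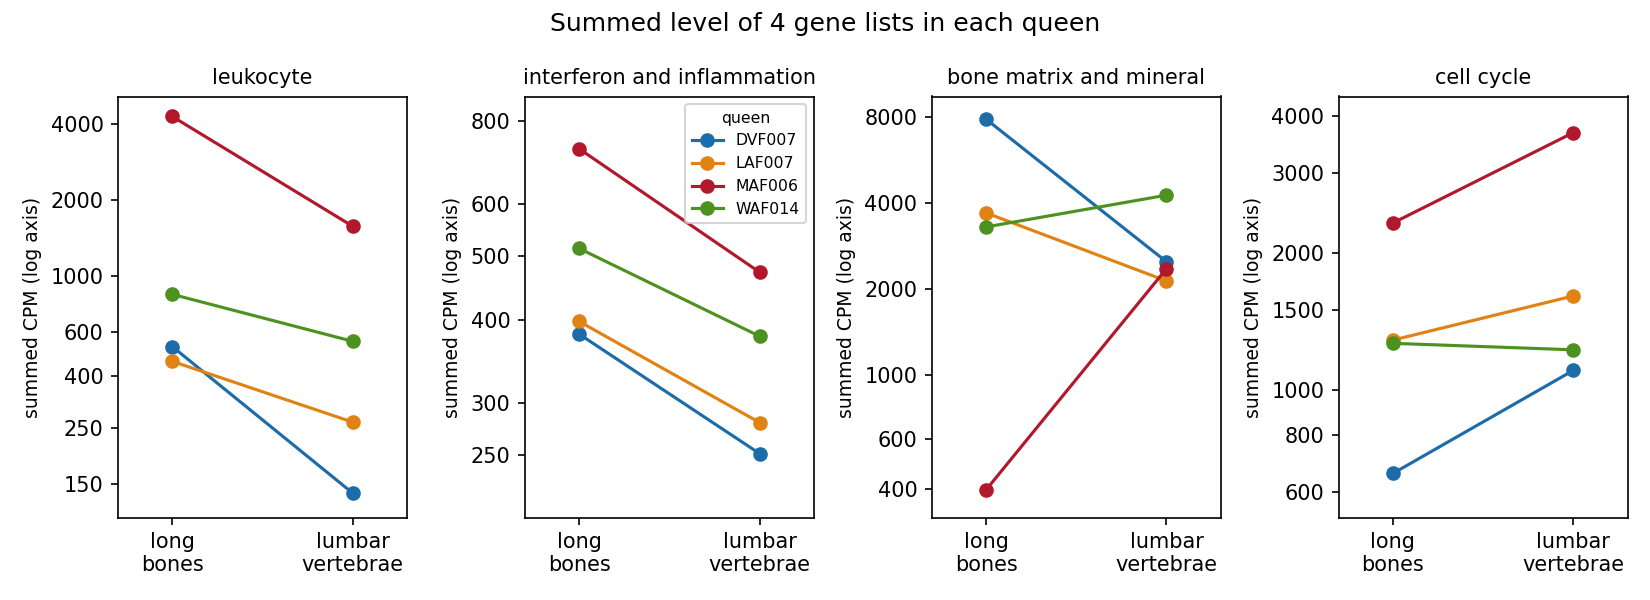
Summed CPM (log axis) of 4 gene lists in the long bones and LV of each queen, joined by a line per queen. The leukocyte and interferon sums are larger in the long bones of all 4 queens, whereas the bone matrix sum drops to 397.5 in the long bones of MAF006 and reaches 7830 in those of DVF007.

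Of 25 cell cycle genes, 22 had a negative log2 fold change, as did 47.8% of all genes, with a median of -0.39. None passed an FDR of 10% in edgeR, limma or DESeq2, and 2 had an unadjusted p under 0.05 towards the LV (edgeR), a share of the list close to the 4.25% of all genes. NUF2, a kinetochore protein, had a log2 fold change of -0.78 (SE 0.23, edgeR adjusted p = 0.459) and CDK1, the kinase that starts mitosis, of -0.56 (SE 0.19, edgeR adjusted p = 0.486). The summed CPM was 657.8, 1290, 2330 and 1269 in the long bones of DVF007, LAF007, MAF006 and WAF014 and 1107, 1612, 3678 and 1228 in their LV, so that WAF014 alone did not have the larger sum in the LV. The median was -0.54 without WAF014, with 12 of 25 genes at an unadjusted p under 0.05. Without WAF014, 2851 of all 11047 genes reached that p in either direction. The count of the list was 0 without MAF006 or DVF007. The 9 cytosolic ribosome genes had log2 fold changes between -0.53 and -0.18, all with an unadjusted p above 0.05. The 9 mitochondrial ribosome genes had 2 positive and 7 negative values.

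For markers of other cells, the summed CPM of 9 endothelial genes was 265.6 to 1091 in the long bones and 202.3 to 346.8 in the LV, the highest value being that of MAF006. These 9 genes had 5 positive and 4 negative log2 fold changes in queens, with a median of 0.38. Of them, 2 had an unadjusted p under 0.05, both towards the long bones, beside 5.4% of all genes in that direction. One of them, FLI1, a factor of blood and endothelial cells, had a log2 fold change of 1.13 (SE 0.44, edgeR adjusted p = 0.486). The summed CPM of 6 skeletal muscle genes was 598.4 to 1353 and 335.4 to 736.9, mostly from FHL1, a LIM domain protein that many mesenchymal cells also express. FHL1 had a log2 fold change of 0.86 (SE 0.19, edgeR adjusted p = 0.299), whereas TNNI3, a cardiac troponin, had -0.41 (adjusted p = 0.589). At an FDR of 10%, limma and DESeq2 each called FHL1 (0.552% and 4.06% of all genes in either direction). Of 10 smooth muscle and contractile genes, 2 had an unadjusted p under 0.05 towards the long bones (GUCY1A1 and TNS1) and 2 towards the LV (FILIP1L and FHL2), beside 5.4% and 4.25% of all genes. DESeq2 called GUCY1A1 and FILIP1L at an FDR of 10%, beside 4.06% of all genes in either direction.

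The study drew gene ontology terms from genes that were higher in queens than in nonbreeders in these samples. It called such genes in the long bones and not in the LV. Only the called genes of a term were looked at here, and its other members were not. These genes were thus picked for high levels in long bone libraries of queens, which are on the positive side of this contrast. That choice favours positive values in queens, so the lists are a description and not independent evidence. All of these genes had positive log2 fold changes in queens. The 6 genes of bone remodeling had a median of 0.87, the 4 of superoxide anion generation 0.67 and the 8 of leukocyte chemotaxis 0.84, and none passed an FDR of 10% in edgeR or limma. In the same order, 1, 2 and 3 of them had an unadjusted p under 0.05 (edgeR), beside 5.4% of all genes in that direction. In DESeq2, 1, 2 and 3 passed an FDR of 10%, beside 2.53% of all genes in that direction. In nonbreeders the medians were 0.13, 0.48 and 0.18. ADAM8, a metalloprotease of leukocytes and osteoclasts that belongs to the remodeling and the chemotaxis term, had a log2 fold change of 0.97 (SE 0.69, edgeR adjusted p = 0.535).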

How the data were processed

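RNA-Seq reads were trimmed by the authors with cutadapt 2.3, mapped to DMR_v1.0 with STAR, restricted to unique alignments and counted per Ensembl gene with HTSeq. The deposited values are these raw counts. No strand setting was found in the sources used here, so overlapping and antisense genes, as well as near-identical copies, are uncertain. The table names genes by identifier. Symbols came from a gene table of the study, of which 1147 identifiers with a symbol were used, and the reference gene table matched 0.

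Counts were added within an animal and bone type. Of 33562 genes, the 11047 that reached a CPM of 2 in 25% or more of the 47 libraries entered edgeR 4.0.16 (TMM factors, quasi-likelihood, two-sided, animal as block) in R 4.3.3, with 8 sums in queens, 20 in nonbreeders and 28 for the interaction. The study applied its filter to TPM. The queen fit had 3 residual degrees of freedom. SEs were derived from the log2 fold change and its F statistic. Exact tests of 4 pairs cannot go below p = 0.125 and are not shown. The p-values of edgeR and DESeq2 come from the sums and measure the spread between animals. The limma p-values do not measure that spread alone. That model took single libraries, with a shared correlation for the libraries of an animal. Vehicle and estradiol libraries of the same pool thus counted separately in it. Days in culture were not used. The pairing comes from the animal, and the long bones and LV of an animal had r values of their deviations between 0.15 and 0.799. The r of 0.15 was that of WAF014, whose LV had an r of 0.559 with the long bones of DVF007 and of 0.349 with those of LAF007, and whose long bones had an r of 0.425 with the LV of LAF007, so 1 of 4 animals did not resemble itself best. Across 15 pairs of libraries of the same bone type and treatment, chi-square per degree of freedom was at least 31.1, so none was a copy.

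Named genes were the members of the gene lists that passed an FDR of 10%, the measured patterning genes (1 of which is not reported here), up to 10 genes with a symbol per direction (5 where fewer than 5 passed), 2 without symbol per direction, and COL1A1, CTSK, LAPTM5, CORO1A and ENG. Further genes illustrate a list by its smallest p or its role and were chosen after their values were seen. The members and lists were chosen with earlier results of these data known. On simulated counts of the queen comparison (11047 genes, 200 changed), 74.5% of changes of 2 on the log2 scale were recovered and 0% of those of 1, and for a change of 2, 10.8% of calls were false. For the interaction, 93% and 36% were recovered, and 7% and 13.3% of calls were false. Each setting was simulated a single time. Alternatives were DESeq2 1.42.0 (size factors in edgeR, and its Wald test), other filters, no block, treatment-matched or vehicle libraries, each queen left out, queens paired with nonbreeders by the letters of their names (added after seeing the data), an FDR of 20%, library totals without TMM factors, and limma 3.58.1 voom on 13 libraries with estradiol as a term. Plots were made with matplotlib 3.10.9.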

Additional observations from a re-analysis of the deposited data

Results flagged for a closer look

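Among 136 groups of values examined for a sample far from the rest, 10 were flagged, and chance flags about 1 in 20 groups. Of the 10, 8 concern MAF006. In its long bones FGFR1 was at 1.12 log2 CPM (the other queens 2.94 to 3.20), SIX2 at -0.75 (2.13 to 2.63) and PPARG at 3.55 (4.62 to 4.83). In its LV, ZEB1 was at 5.93 (6.74 to 6.82) and CTSK at 6.90 (8.94 to 9.22). Its long bones also had a summed leukocyte CPM of 4275 (458.3 to 844.5), an endothelial sum of 1091 (265.6 to 353.6) and a hypoxia and glycolysis sum of 386.0 (661.6 to 686.8). WAF014 had the highest bone matrix sum in the LV, 4250 (2132 to 2487), and a level of ENSFDAG00000012216 in the LV of -2.68 that rests on 1 count, where the other queens had 0.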

How the results depend on the processing

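The 21 genes in queens became 22 with DESeq2's size factors and 20 with filterByExpr, and included all 21 and 20 of the same genes. Other settings moved the count. It was 318 without a filter on low counts, 448 with DESeq2's Wald test, 61 in the limma voom model of 13 libraries, 59 at an FDR of 20%, 12 with treatment-matched libraries and 3 with vehicle only (NDUFA4L2, ENSFDAG00000013279 and ENSFDAG00000016362). The first 2 contain all 21 genes, the voom calls 14 of them and the matched calls 10. Leaving out each queen gave 0 to 1182. Without the replicate block, which ignores the pairing within animals, it was 0 (412 genes at an unadjusted p under 0.05). For the interaction, the count of 0 became 3 with DESeq2 and 0 to 1092 when each queen was left out, the highest without WAF014, and was 0 with queens paired with nonbreeders by name. In nonbreeders the count of 969 was 140 without the block, 1696 with matched libraries and 388 with vehicle only. The cause of these moves was not tested. COL1A1 changed sign with matched libraries (-0.32) and in voom (-0.23). Leaving out each queen, COL1A1 ranged from -0.82 to 1.04, CTSK from -0.65 to 0.00835, SIX2 from -0.0337 to 1.18, OSR2 from -0.83 to 0.0389 and ENG from -0.79 to 0.65. NDUFA4L2, ENSFDAG00000019790 and ENSFDAG00000012216 missed the threshold in voom (limma adjusted p = 0.153, 0.124 and 0.127), and FGFR1 missed it without TMM factors (edgeR adjusted p = 0.117). Of the values of named genes under the alternatives, 158 kept their direction and side of the threshold, 15 lost the threshold, 22 gained it and 2 changed sign, not counting queens left out. The medians of the leukocyte, interferon and cell cycle lists kept their sign under every alternative run for them. Scaling moved the median over all genes by little (0.03, 0.02 with DESeq2's size factors, 0.01 with library totals). In the single simulated set of counts for the 4 queens, 0% of changes of 1 on the log2 scale were recovered.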
